A study of Mus musculus with 2 samples.

Results

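Expression of ion channel genes was compared in whole lung of mice with floxed Foxf1 alleles, with or without an endothelial Cre recombinase. The genes were all symbols that begin with Kcn (potassium channels and their accessory subunits), Scn and a digit (sodium channels), Cacn (calcium channels) or Trpa, Trpc, Trpm or Trpv and a digit (transient receptor potential, or TRP, channels). The rule took 158 of the 22072 genes in the deposited tables, of which 156 encode channel subunits or their regulators. The other two are Kcnq1ot1, an antisense RNA within Kcnq1, and Trpc4ap, whose product binds a TRP channel but forms none. Both groups had the background strain C57/BL6 and floxed Foxf1 alleles, and the tissue was whole lung. The control pool carried the floxed alleles alone. The knockout pool carried them together with Pdgfb-iCreER, a Cre recombinase under control of the Pdgfb gene, which is active mainly in endothelium and needs tamoxifen. The control mice had no Cre, so effects of the transgene and of the loss of Foxf1 cannot be told apart. Each genotype gave 1 library, made from RNA pooled over several mice. The number, age and sex of the mice and the tamoxifen schedule are not stated in the labels. There was no replicate, no p-value was computed, and every difference below compares these 2 libraries.

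Potassium channels hold the membrane of most cells at a negative resting voltage, and voltage-gated sodium and calcium channels open when that voltage collapses. In the lung, potassium and calcium channels of vascular smooth muscle set the tone of pulmonary arteries, and epithelial potassium channels supply the driving force for ion and fluid transport. TRP channels are cation channels that respond to lipids, stretch, heat or osmotic stress and let calcium into endothelium, muscle and macrophages.

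Levels are given in FPKM, sequenced fragments scaled to transcript length and to library size, summed over the transcripts of a gene. FPKM is a value per length, so that levels of different genes can be set side by side. Reads on transcripts came to about 13.2 M for the control library and 10.4 M for the knockout library. On a transcript of 2000 bases, 10 reads gave an FPKM of 0.304 in the control library and 0.392 in the knockout library. A gene was called higher or lower where log2(FPKM + 1) differed by at least 1.5-fold and the mean FPKM of both libraries was 1 or more. The added 1 understates the fold of genes with low values. Folds given for single genes are plain FPKM ratios with a 95% exact conditional (Clopper-Pearson) interval from approximate reads. These intervals cover counting error only and leave out the spread between mice. Foxf1, listed as Foxf1a, had 72.1 FPKM in control lung and 15.7 in knockout lung, 4.59-fold lower (3.96 to 5.33).

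Most channel genes were little expressed in lung. Genes that reach the floor, a mean FPKM of 1, are called expressed here, and 55 of the 158 did so (34.8%), compared with 58.6% of all genes in the tables. A further 31 genes were listed at 0 in both libraries. Just above the floor lay Kcnip4 and Kcnmb1, both at a mean FPKM of 1.02. Just below it lay Kcnip3 at 0.962, Kcne3 at 0.927 and Kcnip2 at 0.694. The 55 genes comprised 31 of 94 potassium channel genes, 5 of 14 sodium, 8 of 26 calcium and 10 of 22 TRP genes, besides Trpc4ap. Of the 40 genes of voltage-gated potassium channels, 9 were expressed. All 158 genes together held 0.0918% of the summed FPKM of the control library and 0.079% of that of the knockout library. Behind the 55 genes stood 29 to 6179 approximate reads in the control library (median 150) and 19 to 2127 in the knockout library (median 135).

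By summed FPKM, sodium channel genes differed most of the 4 families, through 2 genes, whereas their median log2 ratio was -0.07 beside -0.11 for potassium channel genes. Scn7a and Scn3b were the first and the third most abundant channel genes of the control lung, and both were lower in the knockout pool. The other 4 genes that were lower were Kcnj2, Kcnk2, Kcns3 and Cacnb1, and the 6 that were higher were Kcne4, Kcnh2, Kcnk3, Kcnk5, Kcnk13 and Trpv4. The 6 higher genes made 10.9% of the 55, beside 9.41% of all 12929 genes over the same floor. The 6 lower genes likewise made 10.9%, beside 4.63% of all genes. These shares of all genes, 9.41% higher and 4.63% lower, are also the background for the counts by class and by marker list below. The median log2 ratio of the 55 was -0.04, beside 0.05 for all genes. At a fold of 2, 1 of the 55 was higher (3.75% of all genes) and 2 were lower (1.25% of all genes). The counting interval lay above equality for 13 of the 55 genes, below it for 13, and held equality for 29. The matching share over all genes was not computed, so these counts do not set channel genes apart.

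**Figure D1:**
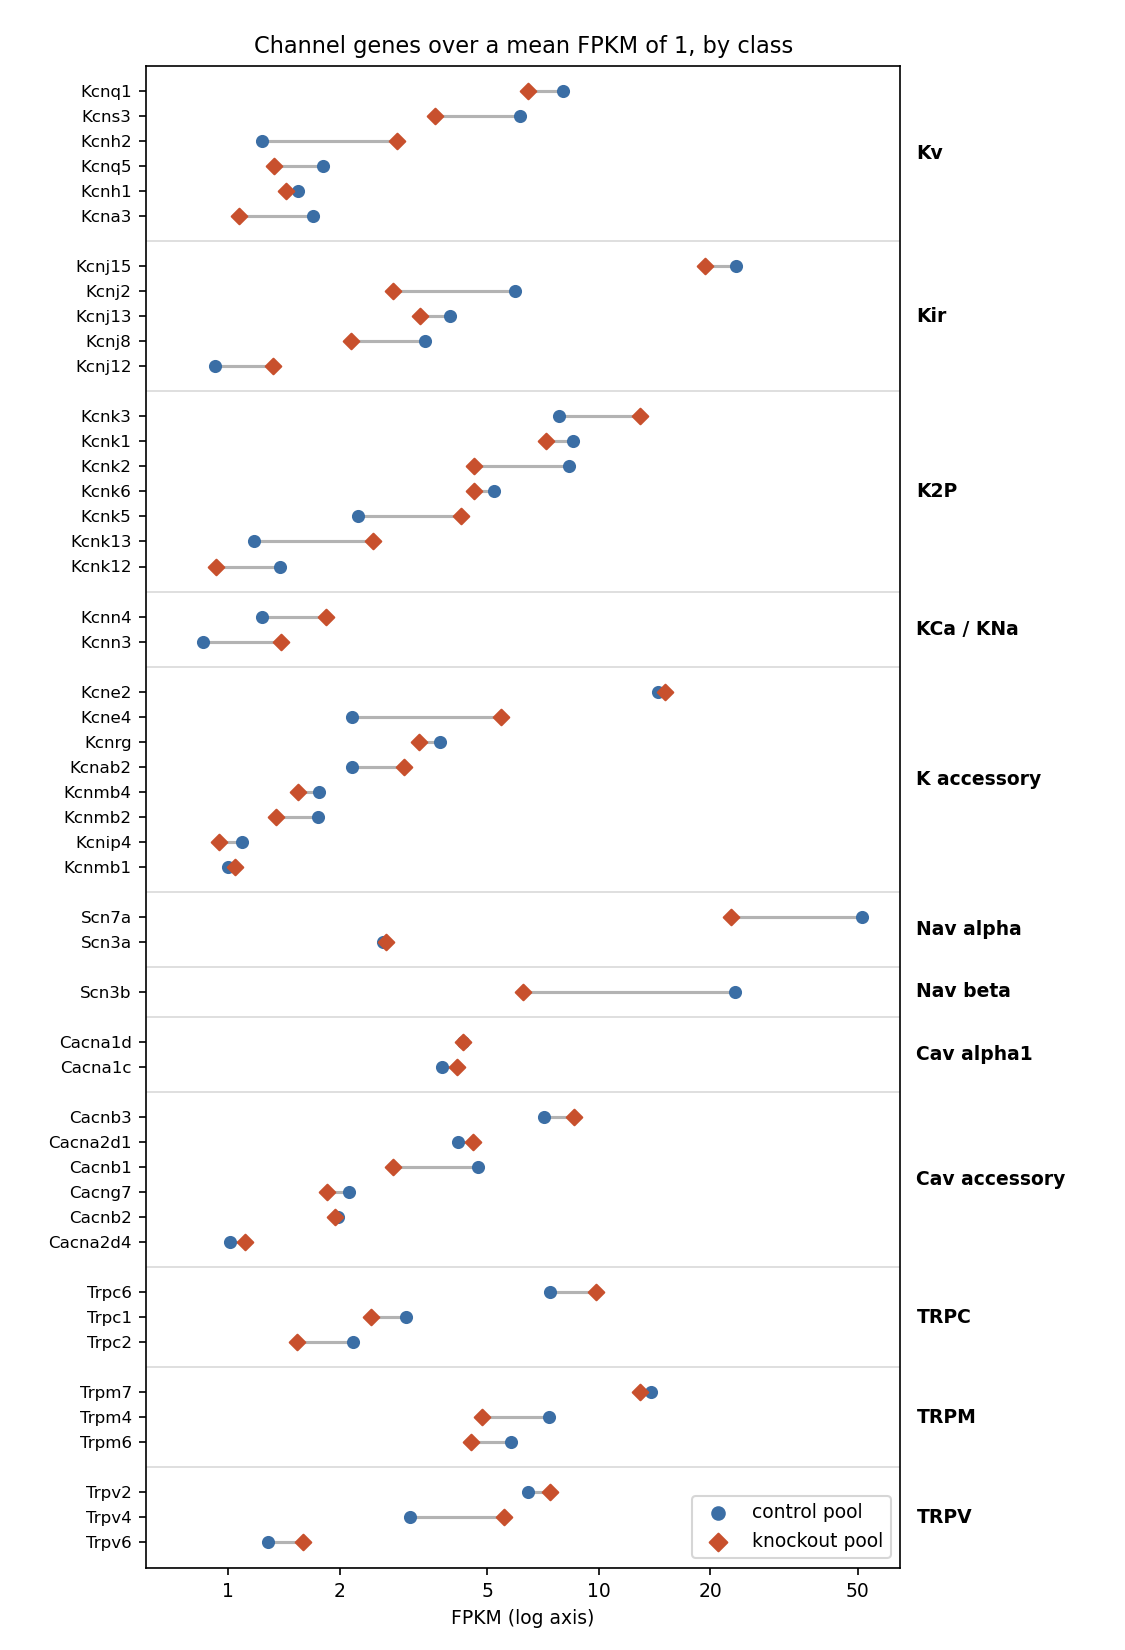
Level of 48 of the 54 expressed channel genes in the control pool (circle) and the knockout pool (diamond), with FPKM on a log axis and genes grouped by class. Each point is 1 library. Scn7a stands highest in both pools, at 51.2 and 22.7 FPKM, and Scn3b shows the widest gap, from 23.3 to 6.23 FPKM.

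The RefSeq promoter table (GRCm38.p6) held 42 of the 55 genes, including 10 of the 12 that were higher or lower. Scn3b and Kcnk3 are not among them. The 250 bases before the annotated start are shown for Scn7a and Kcnj2, the 2 genes with the lowest ratios among those 10, and for Kcne4, the gene with the highest ratio. Capitals mark CG dinucleotides, and each sequence is written 5′ to 3′ on the gene's strand.
Scn7a (chr2:66784911-66785160, minus strand): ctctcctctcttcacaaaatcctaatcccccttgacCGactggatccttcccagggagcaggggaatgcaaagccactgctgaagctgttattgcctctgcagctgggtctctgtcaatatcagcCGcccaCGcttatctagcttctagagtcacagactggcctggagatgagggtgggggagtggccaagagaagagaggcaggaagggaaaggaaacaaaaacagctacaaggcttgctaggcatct
Kcnj2 (chr11:111065914-111066163, plus strand): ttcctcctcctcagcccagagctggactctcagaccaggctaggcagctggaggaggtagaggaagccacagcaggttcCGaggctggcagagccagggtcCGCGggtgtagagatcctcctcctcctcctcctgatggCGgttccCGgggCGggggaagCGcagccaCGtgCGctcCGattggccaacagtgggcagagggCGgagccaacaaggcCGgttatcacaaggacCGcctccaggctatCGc
Kcne4 (chr1:78816661-78816910, plus strand): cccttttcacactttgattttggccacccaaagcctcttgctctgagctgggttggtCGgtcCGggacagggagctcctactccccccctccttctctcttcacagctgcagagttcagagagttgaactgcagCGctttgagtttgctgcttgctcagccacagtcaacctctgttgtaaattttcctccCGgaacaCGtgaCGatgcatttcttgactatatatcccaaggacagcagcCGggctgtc
The window of Scn7a held 3 CG dinucleotides, that of Kcnj2 14 and that of Kcne4 7. Over all 32851 windows of this length in the table the median was 6, with quartiles of 2 and 16. Forkhead proteins bind sites with the core letters TAAACA. These letters or their reverse complement TGTTTA occurred in 12% of all windows. Counted per gene, they occurred in 9.49% of the 9074 genes over the floor with a window, and in 8 of the 42 members (19%). The median CG count of these sets, from the richest window of each gene, was 17 and 11.5. A gene counted where any of its windows held these letters, so genes with several windows had more chances. Among the 10 called genes with a window, Kcnk13 alone held them (10%). Its window is shown with the match in capitals, which begins 150 bases before the start.
Kcnk13 (chr12:99964249-99964498, plus strand): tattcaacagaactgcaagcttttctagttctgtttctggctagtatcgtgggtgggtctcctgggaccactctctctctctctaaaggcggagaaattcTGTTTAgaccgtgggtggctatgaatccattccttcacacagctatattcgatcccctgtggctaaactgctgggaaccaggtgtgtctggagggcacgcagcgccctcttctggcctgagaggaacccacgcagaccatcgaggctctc
A match of these letters is a description of the sequence, and a window without them says only that they are not in these 250 bases.

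Of the sodium channel pore genes, Scn7a encodes Nax, an atypical member that responds to the sodium level outside the cell rather than to voltage. Its level was 51.2 FPKM in control lung and 22.7 in knockout lung, from 6179 and 2127 approximate reads. That was 2.25-fold lower (2.14 to 2.37). Scn7a lies on chromosome 2 from 66511483 to 66622967 (mm9) in a run of sodium channel genes. Scn3a, in the same run from 65295175 to 65405549, encodes a neuronal-type pore. It stood at 2.61 and 2.67 FPKM, and its counting interval held equality. Between them, Scn2a1 stood at 0.0717 and 0.184 FPKM, Scn1a at 0.00368 and 0.00354 FPKM, and Scn9a, 38.5 kb from Scn7a, was listed at 0 in both pools. Scn7a and Scn3a were the only genes of the run over the floor.

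The beta subunits are small membrane proteins that modify the gating and surface level of sodium channel pores. Scn3b had 23.3 FPKM in control lung and 6.23 in knockout lung, from 1599 and 331 approximate reads. It was 3.74-fold lower (3.32 to 4.22), the lowest ratio of all 55 genes. Scn3b lies on chromosome 9 from 40076801 to 40099203 (mm9) and has 3 transcript records. The most abundant, of 4151 bases, had 18.4 and 4.98 FPKM, and the next, of 4241 bases, had 4.35 and 1.25 FPKM. Their shares of the gene were 79.1% and 18.7% in control lung and 79.9% and 20.1% in knockout lung. Both main records were thus lower by a similar factor. Summed over the 5 sodium channel genes over the floor, FPKM was 83.2 in control lung and 38.2 in knockout lung, a ratio of 0.459. Without Scn7a and Scn3b the sum was 8.75 and 9.26. For all 54 channel genes over the floor the sum was 301 and 253, and without Scn7a and Scn3b it was 226 and 224. In whole-lung RNA, fewer cells of a type and less RNA per cell cannot be told apart.

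**Figure D2:**
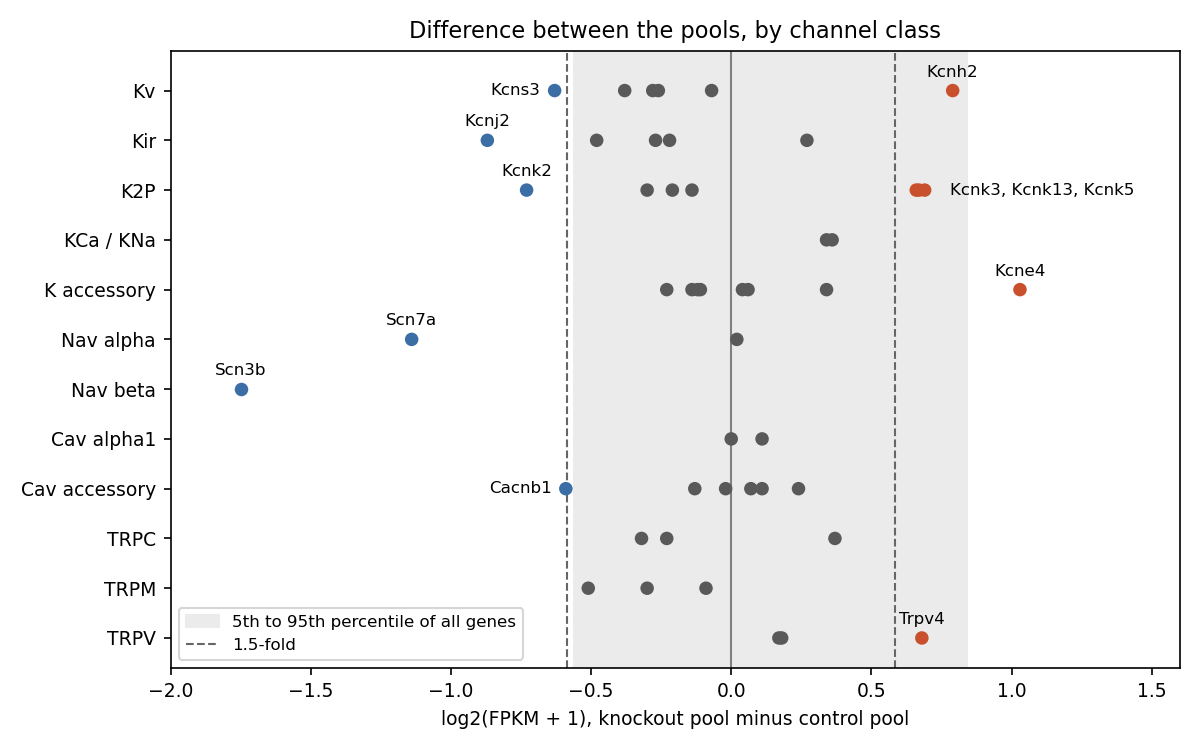
Difference of log2(FPKM + 1) between the knockout and the control pool for 48 of the 54 channel genes over the floor, 1 point per gene, by class. Dashed lines mark 1.5-fold and the grey band the 5th to 95th percentile of all 12929 genes (-0.56 to 0.84). Scn3b at -1.75, Scn7a at -1.14 and Kcne4 at 1.03 lie farthest out.

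Inward rectifiers pass potassium more easily into the cell than out of it and hold the resting voltage. Of the 5 expressed genes 1 was lower, none was higher and 4 lay below equality, with a median log2 ratio of -0.27. Kcnj2 encodes Kir2.1, a strong rectifier of heart, muscle and endothelium. Its level was 5.93 FPKM in control lung and 2.79 in knockout lung, from 531 and 194 approximate reads. It was 2.12-fold lower (1.80 to 2.52), and it has 1 transcript record, on chromosome 11 from 110927478 to 110938139 (mm9). Kcnj15, the third most abundant of the 158 genes in the knockout pool, stood at 23.5 and 19.4 FPKM, 1.21-fold lower (1.13 to 1.30). Of its 3 records, only that of 5043 bases was lower (15.4 and 9.99 FPKM). The longest record of Kcnj15 alone gave a log2 ratio of 0.25. Kcnj8 encodes Kir6.1, the pore of the ATP-sensitive channel of vascular muscle and pericytes. It stood at 3.39 and 2.14 FPKM, 1.58-fold lower (1.15 to 2.19), which is within 1.5-fold on the log2(FPKM + 1) scale. Abcc9, the gene of its partner subunit SUR2, stood at 2.55 and 1.90 FPKM, 1.34-fold lower (1.11 to 1.62). Abcc8, the gene of the other partner subunit, was listed at 0 in both pools. Kcnj13, a rectifier gene whose record overlaps that of Gigyf2 (9.07 and 8.28 FPKM), stood at 3.97 and 3.28 FPKM. Both Kcnj13 and Kcnj12 (0.919 and 1.32 FPKM) had intervals that held equality.

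Tandem-pore (K2P) channels carry the potassium leak current. Their genes went both ways, with 3 of 7 higher and 1 lower. Kcnk3 encodes the acid-sensitive leak channel TASK-1, and loss of the human gene's function is a known cause of pulmonary arterial hypertension. It had 7.80 FPKM in control lung and 12.9 in knockout lung, from 489 and 629 approximate reads. It was 1.66-fold higher (1.47 to 1.87) and lies on chromosome 5 from 30890543 to 30927643 (mm9). Kcnk2 encodes TREK-1, a leak channel opened by stretch and by lipids. It had 8.29 FPKM in control lung and 4.59 in knockout lung, from 466 and 201 approximate reads, which was 1.81-fold lower (1.52 to 2.14). Kcnk2 lies on chromosome 1 from 191031809 to 191168071 (mm9). Its 3 records were each lower, from 2.35 to 1.04, from 2.49 to 1.49 and from 3.45 to 2.06 FPKM. Within a library, Kcnk3 stood at 0.94 times the level of Kcnk2 in control lung and at 2.82 times in knockout lung, a pair chosen after its values were seen. 

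Kcnk5, which encodes the alkali-activated leak channel TASK-2, had 2.24 FPKM in control lung and 4.25 in knockout lung. It was 1.89-fold higher (1.5 to 2.40) and lies on chromosome 14 from 20959280 to 21001004 (mm9). Kcnk13, the THIK-1 gene, had 1.17 and 2.46 FPKM, from 60 and 96 approximate reads, and was 2.11-fold higher (1.5 to 2.95). It lies on chromosome 12 from 101202709 to 101300892 (mm9). Nearly all of its signal was placed on the record of 3112 bases in the control pool and on the record of 3061 bases in the knockout pool, so the sum is the firmer value. Taking the longest record alone turned its log2 ratio from 0.67 to -1.12. Kcnk1 (8.51 and 7.22 FPKM), Kcnk6 (5.21 and 4.61 FPKM) and Kcnk12 (1.38 and 0.927 FPKM) had intervals that held equality.

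Voltage-gated potassium channels repolarise cells after excitation, and several of them set arterial tone. Of the 9 expressed genes 1 was higher and 1 lower, with a median log2 ratio of -0.07. Kcnh2 encodes hERG, the pore of the rapid repolarising current of the heart. It had 1.23 FPKM in control lung and 2.85 in knockout lung, from 85 and 153 approximate reads, and was 2.32-fold higher (1.77 to 3.06). It lies on chromosome 5 from 23825407 to 23857422 (mm9). Kcns3 encodes a silent subunit that forms no channel alone and modifies other voltage-gated pores. Kcns3 had 6.13 FPKM in control lung and 3.62 in knockout lung, from 296 and 136 approximate reads. It was 1.69-fold lower (1.37 to 2.08) and lies on chromosome 12 from 11097008 to 11157648 (mm9).

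Kcnq1, a pore gene of heart and epithelia, stood at 8.0 and 6.44 FPKM, 1.24-fold lower (1.06 to 1.46). The antisense Kcnq1ot1 overlaps it at 0.265 and 0.182 FPKM. Kcnq5, of the same family, was 1.35-fold lower (1.08 to 1.72) at 1.80 and 1.33 FPKM. Kcna3, the main voltage-gated pore gene of T cells, stood at 1.69 and 1.07 FPKM with an interval that held equality. T and NK cell markers beside it had a summed FPKM of 49.7 and 40.3, with 2 of 12 lower and none higher. Their part in the value of Kcna3 was not tested. Kcnh1 stood at 1.54 and 1.43 FPKM with an interval that held equality.

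Calcium-activated potassium channels of small and intermediate conductance hyperpolarise endothelium when calcium rises. Kcnn3 had 0.855 FPKM in control lung and 1.39 in knockout lung, 1.62-fold higher (1.25 to 2.12), and Kcnn4 had 1.23 and 1.83 FPKM with an interval that held equality. Both were within 1.5-fold on the log2(FPKM + 1) scale. The pore gene of the large-conductance channel, Kcnma1, lay far under the floor at 0.0509 and 0.0653 FPKM. Of the 4 genes of its beta subunits, Kcnmb3 was listed at 0 in both pools and the other 3 were over the floor, with Kcnmb1 at 0.995 and 1.04 FPKM, Kcnmb2 at 1.75 and 1.34 FPKM and Kcnmb4 at 1.76 and 1.54 FPKM. The intervals of these 3 genes held equality.

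Of the 8 accessory genes of potassium channels over the floor, 1 was higher and none lower. Kcne4 encodes a single-span subunit that inhibits Kcnq1 channels and some other voltage-gated pores. It had 2.16 FPKM in control lung and 5.45 in knockout lung, from 87 and 171 approximate reads. It was 2.53-fold higher (1.95 to 3.32), the highest ratio of the 55 genes, and lies on chromosome 1 from 78813524 to 78816600 (mm9). Kcne2, of the same family, was the most abundant accessory gene at 14.4 and 15.1 FPKM, and its interval held equality. Relative to the pore gene Kcnq1, Kcne4 stood at 0.27 in control lung and 0.847 in knockout lung, and Kcne2 at 1.8 and 2.35, pairs chosen after their values were seen. Kcnab2, which encodes a cytoplasmic beta subunit, was 1.38-fold higher (1.08 to 1.78) at 2.15 and 2.98 FPKM. Kcnrg, a gene of a regulator of channel assembly, stood at 3.72 and 3.27 FPKM. Its record overlaps that of Dleu2 (5.59 and 3.43 FPKM), and the labels do not say whether reads were counted by strand, so reads of the pair may be mixed. Kcnip4 stood at 1.09 and 0.943 FPKM with an interval that held equality.

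**Figure D3:**
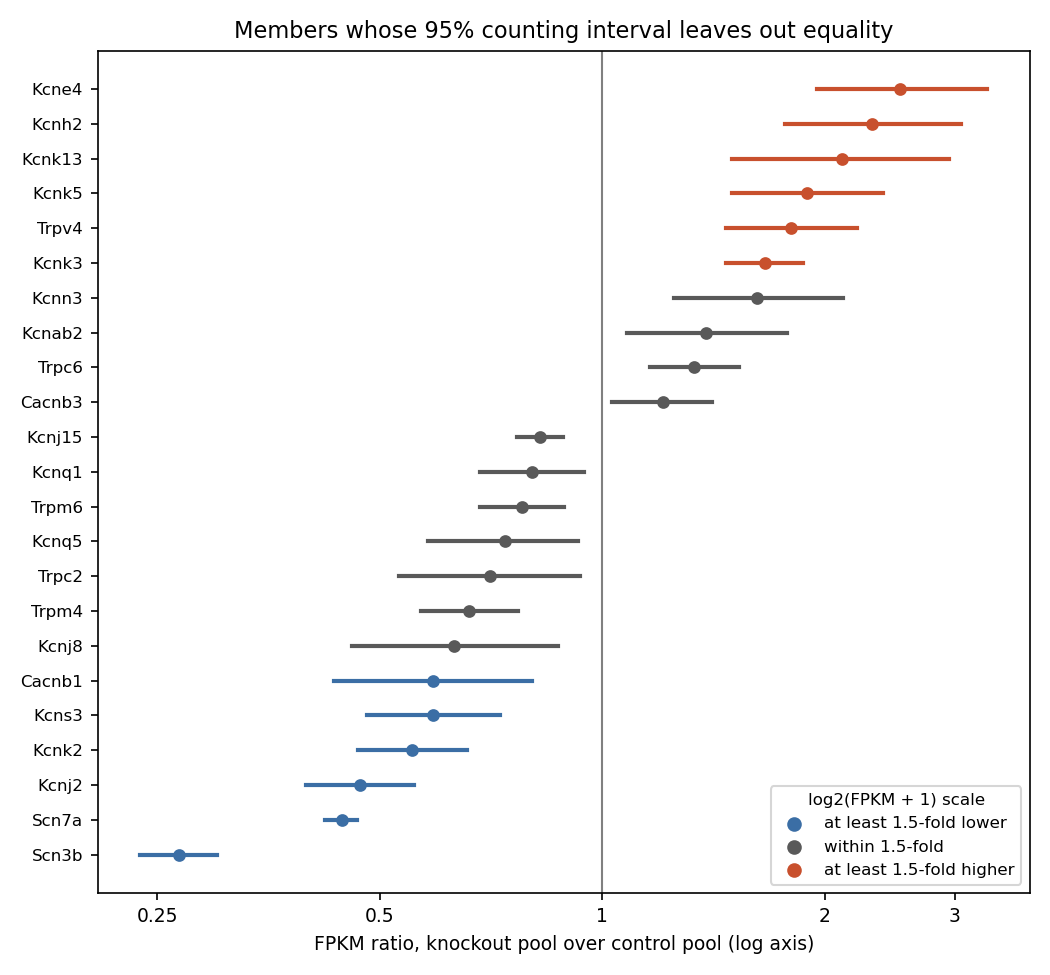
FPKM ratio of the knockout over the control pool, on a log axis, for 23 of the 26 genes whose 95% counting interval leaves out equality. Points are ratios and bars are intervals from approximate reads. The share of all genes with such intervals was not computed. Colours mark the 6 genes at least 1.5-fold higher and the 6 at least 1.5-fold lower on the log2(FPKM + 1) scale. The intervals of the lowest gene, Scn3b (0.237 to 0.301), and of the highest, Kcne4 (1.95 to 3.32), lie far apart.

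Voltage-gated calcium channels admit calcium on depolarisation and start contraction of vascular muscle. Both expressed pore genes encode L-type channels and were level. Cacna1c, the vascular and cardiac form, had 3.77 and 4.15 FPKM, and Cacna1d had 4.30 and 4.30 FPKM, with intervals that held equality. The record of Cacna1c overlaps that of Dcp1b (3.44 and 2.46 FPKM), and that of Cacna1d overlaps Dcp1a (5.80 and 6.13 FPKM). The 2 records of Cacna1d changed places, since that of 9064 bases held 68.5% of the gene in control lung and 30.7% in knockout lung. Such a split between overlapping records has no replicate check. Of the 6 accessory genes, Cacnb1 was lower and none was higher. The beta subunits bind the pore inside the cell and bring it to the membrane. Cacnb1 had 4.71 FPKM in control lung and 2.78 in knockout lung, from 139 and 64 approximate reads, which was 1.69-fold lower (1.25 to 2.30). It lies on chromosome 11 from 97864215 to 97883941 (mm9) and stood just inside the call at -0.59. Most of the drop lay in its record of 1738 bases, from 1.68 to 0.362 FPKM. The records of 1996 bases (1.72 and 1.25 FPKM) and 1600 bases (1.3 and 1.17 FPKM) were lower by less. Cacnb3, the most abundant accessory gene, was 1.21-fold higher (1.03 to 1.41) at 7.12 and 8.58 FPKM. Its 2 records went opposite ways, from 1.47 to 4.69 and from 5.65 to 3.89 FPKM. The longest record of Cacnb3 alone gave a log2 ratio of -0.44. Cacnb2 (1.97 and 1.94 FPKM), Cacna2d1 (4.17 and 4.57 FPKM), Cacna2d4 (1.01 and 1.11 FPKM) and Cacng7 (2.11 and 1.84 FPKM) had intervals that held equality.

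**Figure D4:**
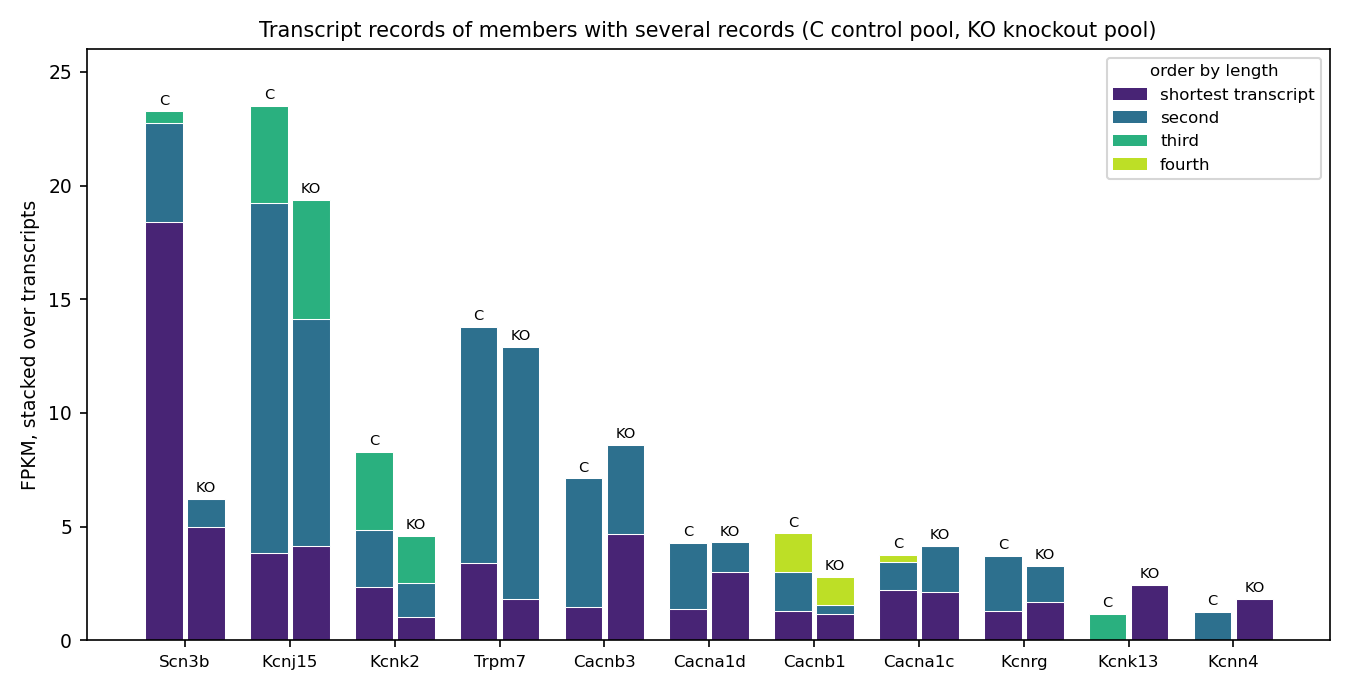
FPKM of each transcript record, stacked from the shortest to the longest, in the control pool (C) and the knockout pool (KO) for 11 of the 18 genes with several records. Records of Scn3b and Kcnk2 kept similar shares while their sums were lower, and those of Kcnk13 and Kcnn4 switched from one record to another.

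Of the 10 expressed TRP channel genes 1 was higher and none lower, with a median log2 ratio of 0.04. Trpv4 encodes a calcium-permeable channel that opens on osmotic and mechanical stress, and its opening is known to raise the permeability of lung endothelium. It had 3.10 FPKM in control lung and 5.56 in knockout lung, from 164 and 229 approximate reads. It was 1.80-fold higher (1.47 to 2.21) and lies on chromosome 5 from 115072163 to 115108430 (mm9). The other expressed TRPV genes, Trpv2 (6.44 and 7.39 FPKM) and the calcium-selective Trpv6 (1.28 and 1.59 FPKM), had intervals that held equality.

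TRPC channels open downstream of phospholipase C, and Trpc6 is known for its part in hypoxic constriction of lung vessels. Trpc6 was 1.33-fold higher (1.16 to 1.53) at 7.37 and 9.81 FPKM. Trpc1 (3.02 and 2.43 FPKM) had an interval that held equality, and Trpc2 was 1.42-fold lower (1.07 to 1.88) at 2.17 and 1.53 FPKM. The 3 expressed TRPM genes all lay below equality, with none past 1.5-fold on the log2(FPKM + 1) scale. Trpm7, which encodes a channel fused to a kinase and is used in magnesium balance, was the most abundant TRP channel gene at 13.8 and 12.9 FPKM, and its interval held equality. Trpm4, a gene of a calcium-activated channel for monovalent cations, was 1.52-fold lower (1.30 to 1.76) at 7.35 and 4.85 FPKM. Trpm6, a magnesium channel gene, was 1.28-fold lower (1.13 to 1.46) at 5.79 and 4.51 FPKM. Trpc4ap, the gene of a TRP-binding protein, stood at 32.2 and 34.5 FPKM with an interval that held equality. The single TRPA gene, Trpa1, lay under the floor at 0.0299 FPKM in control lung and 0 in knockout lung.

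Among 40 expressed genes of a list of other channels and calcium handling, 1 was higher and 2 were lower, with a median log2 ratio of -0.08. Of all genes over the same floor, 9.41% were higher and 4.63% lower. Fam38b, which encodes the stretch-activated channel Piezo2, had 4.76 and 2.44 FPKM, 1.96-fold lower (1.72 to 2.23). The gene of its relative Piezo1, Fam38a, lay on the other side of equality at 23.0 and 34.8 FPKM, 1.51-fold higher (1.44 to 1.59), short of the call. The other gene that was lower was Clic5, an intracellular chloride channel family gene at 230 and 152 FPKM, and the one that was higher was Clic1 of the same family at 91.7 and 150 FPKM. Clic4 was the most abundant of the list at 290 and 250 FPKM. The store-operated calcium entry gene Orai1 stood at 17.5 and 24.6 FPKM, and the epithelial sodium channel gene Scnn1a at 129 and 123 FPKM. Orai1, Scnn1a and Fam38a were chosen after their values were seen.

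Cell type markers also differed between the pools, and their part in the channel values was not tested. Endothelial markers had a summed FPKM of 2360 in control lung and 2050 in knockout lung, with 3 of 16 higher and 4 lower. Calcrl (307 and 100 FPKM) and Ramp2 (423 and 161 FPKM) had the lowest ratios of the 16, and Emcn (30 and 153 FPKM) the highest. The drops of Calcrl and Ramp2 together exceed that of the sum. Smooth muscle markers had 216 and 435 FPKM (4 of 9 higher, none lower) and pericyte markers 347 and 497 FPKM (4 of 11 higher, none lower). The pericyte channel gene Kcnj8 lay below equality, as did Abcc9 (2.55 and 1.90 FPKM) and Vtn (11.4 and 8.82 FPKM) of the pericyte list. The other pericyte markers lay above equality. Cardiac muscle markers had 67.9 and 96.3 FPKM, with 4 of the 7 over the floor higher and none lower. Those 4 were Myl7 (1.6 and 4.75 FPKM), Tnnt2 (0.748 and 2.38 FPKM), Actc1 (15.9 and 26.1 FPKM) and Gja5 (11.3 and 30.1 FPKM), the last also a gene of arterial endothelium. The other 3 were not called. Of these, Myl4 (1.91 and 2.31 FPKM) lay above equality, and Nebl (32.7 and 26.8 FPKM) and Tnni3 (2.24 and 1.32 FPKM) lay below it. Sln and Myl3 were listed at 0 in both pools, and Myh6 stood at 0 and 0.0564 FPKM. Of the called channel genes described above with a role in the heart, Kcnh2 was higher and Kcnj2 was lower. Heart expression of the other called genes was not examined. Macrophage and monocyte markers had 216 and 354 FPKM (5 of 12 higher, none lower) and cell cycle genes 79.2 and 390 FPKM (15 of 15 higher).

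Neuronal and neuroendocrine markers had 9.04 and 11.3 FPKM, with 3 of 18 over the floor, of which 1 was higher and none lower. The higher one was Tubb3 at 0.4 and 2.87 FPKM, 7.17-fold (3.86 to 15.5), while Th, Nefl and Nefm were listed at 0 in both pools. Schwann and glial markers had 29.1 and 28.7 FPKM, with none of the 2 over the floor called and Sox10 listed at 0 in both. Ciliated cell markers (701 and 419 FPKM, 3 of 8 lower), club cell markers (40500 and 25700 FPKM, 3 of 8 lower and 1 higher) and alveolar type 1 markers (3410 and 2740 FPKM, 2 of 9 lower) were lower in sum. Scgb1a1 (35300 and 22800 FPKM) made most of the club cell sum. Of that list, Hp (402 and 455 FPKM) and the called Scgb3a1 (13 and 21 approximate reads) lay above equality, and the others below it. None of the 10 alveolar type 2 markers was called, at 24100 and 21200 FPKM. Platelet markers had 52.7 and 32.9 FPKM (4 of 7 lower), neutrophil markers 69.5 and 96 FPKM (2 of 7 higher) and B cell markers 34 and 45.1 FPKM (1 of 5 higher).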

How the data were processed

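Whole-lung RNA was sequenced from 1 pool of mice per genotype, and each library was assigned by its genotype label. Per the file headers, the deposited values are FPKM and coverage (a signal) for 28107 RefSeq transcript records per library. The submitters' processing notes name DESeq and mm9 without saying how DESeq was used, and an aligner and a quantification tool are not named there. Record length equalled end minus start in 3284 records and that plus 1 in 0, so deposited starts count from 0, and 1 was added for printing.

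FPKM was summed over the records of a symbol, and log2(FPKM + 1) was compared between the pools (Python 3.11.15, pandas 2.3.3, scipy 1.17.1). Reads were approximated as coverage times length divided by the bases 1 read adds, 47.5 in the control and 47.6 in the knockout library, the mean of coverage times length over single-record genes where it lay between 40 and 56 bases. The scripts were tested on simulated data. The 12 called genes, the 2 most abundant of each class and the genes next to the floor are named with values, and other expressed members complete each class. Some genes are not reported here by name or in the figures, and counts, sums and medians include them. The design also named single genes of each marker list. To keep to the channels, these lists are given mainly by counts and sums, and single markers are named for some lists only. Of 55 expressed members, 10 overlap the record of another gene, none of them called. The members and lists were chosen with earlier results of these data known. Alternatives varied the pseudocount, floor, fold, scaling and choice of records.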

Additional observations from a re-analysis of the deposited data

How the results depend on the processing

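Of the 12 called genes, all 12 kept their call with a pseudocount of 0.1, under median-ratio and upper-quartile scaling (both a factor of 1.04), with records of status OK alone, with no floor, and without Trpc4ap, a setting chosen after seeing the data. Of these settings, only the scalings could have removed a call. A smaller pseudocount enlarges each log2 ratio, and no floor only admits genes. The called genes have no record of another status, and leaving out Trpc4ap does not touch them. A pseudocount of 3 left 1 gene higher and 3 lower, a floor of 5 left 1 and 3, and a fold of 2 left 1 and 2, each stricter by construction. A pseudocount of 0.1 gave 9 and 9, with Kcna3, Kcnj8, Kcnn3 and Trpm4 among those added. At a fold of 2, 3.75% of all genes were higher and 1.25% lower. For the other settings the matching share of all genes is not given here. These counts show how the calls depend on the setting and do not set channel genes apart. With the longest record alone, Cacnb1, Kcnk13, Kcnk2 and Scn3b lost the call, Cacna1d gained one and the log2 ratio of Kcnk13 was -1.12. That record holds 2.2% of Scn3b in the control pool and lies under the floor, and its log2 ratio was -0.60. The median log2 ratio of TRP genes was 0.04, -0.14 under either scaling, where 9 genes passed the floor, and -0.09 with a floor of 5. That of calcium channel genes was 0.04, -0.20 with the longest record and 0.24 with a floor of 5. Cacnb3, at a mean FPKM of 7.85, was the only calcium channel gene over a floor of 5, so 0.24 is its own ratio. With that floor the potassium median moved from -0.11 to -0.21 and the sodium median from -0.07 to -1.14, with fewer genes. The median of all 55 lay between -0.10 and -0.02 over the alternatives. No paired analysis was possible because each genotype has 1 library, and no library could be left out. Depth limits genes near the floor, such as Kcna3, whose ratio had an interval of 0.384 to 1.02.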
